A study of Homo sapiens with 12 samples.

Results

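The genes examined here were 10 components and targets of bone morphogenetic protein (BMP) signalling: ID1, ID2, ID3, ID4, SMAD6, SMAD7, SMAD9, BAMBI, KCP and BMP4. They were taken by name from the 60675 gene identifiers of the deposited count table, and all 10 were found. The 10 genes were selected on values of these data as well as on their roles, among them the higher KCP and lower ID2 counts at the highest dose, and so were chosen by the comparison of that dose with vehicle. Their values against vehicle are therefore given as a description, without a test. The RNA came from SW1783, an established human astrocytoma cell line, and was sequenced in bulk. The 12 libraries formed 4 groups of 3, all harvested after 24 h. The control group received vehicle, labelled 2% DMSO, which the study made up in phosphate-buffered saline. The other 3 groups received an aqueous extract (ACD) of the root of Aconitum carmichaeli Debeaux, at a low (20 µg/mL), medium (100 µg/mL) or high (500 µg/mL) dose. The study took up the extract in the same kind of solution, saline with 2% DMSO, before adding it to the wells of medium. All groups were the same line in the same medium, with no genetic change, and 1 line is a limit on how far the values extend to other cells. The treatment protocol attached to the labels describes an extract of another medicinal species, whereas the sample titles and treatment labels name ACD, and the labels were followed.

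BMPs are secreted ligands of the TGF-beta superfamily. They bring type I and type II receptor kinases together at the cell surface, and the receptors phosphorylate SMAD1, SMAD5 and SMAD9, which enter the nucleus with SMAD4. The ID genes are classic direct targets. Their products are helix-loop-helix proteins without a DNA-binding region. They pair with basic helix-loop-helix (bHLH) factors, keep them from DNA and are known for restraining the differentiation that such factors drive. SMAD6, SMAD7 and BAMBI are feedback inhibitors that the pathway itself switches on. KCP is a secreted protein with cysteine-rich repeats that binds BMP ligands and is known to enhance BMP signalling, and BMP4 is a ligand.

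Total counts per library ranged from 18863863 to 24200576. Replicates differed by more than counting noise, with a chi-square per degree of freedom of 2.06 to 3.77, and no pair looked like the same library under a second name. No source used here says whether the replicates were separate cultures, so p-values measure the spread between these libraries. The share of counts on mitochondrial ribosomal RNA genes moved with treatment, from 0.912 to 0.96% at vehicle to 3.01 to 3.33% at the low, 7.67 to 8.05% at the medium and 5.76 to 6.06% at the high dose. Its part in the results was not tested, but with all mitochondrially encoded genes left out the number of the 10 genes passing the call rule below was the same in each comparison. The astrocyte label was checked on 11 marker genes. VIM, CD44, GJA1, SOX9, SLC1A3 and NES were detected. In any library SLC1A2 did not exceed 9 counts, GFAP 6, S100B 5 and ALDH1L1 2, and AQP4 had none. The summed normalised level of the 11 markers lay between 152585 and 157467 in the 4 groups, nearly all of it VIM and CD44. SLC1A3, a glutamate transporter, went from 690 at vehicle to 359 at the medium and 126 at the high dose (log2 fold change -0.94 and -2.45), and NES, which encodes the intermediate filament nestin, from 214 to 129 and 64.7 (-0.74 and -1.72). Both were called at both doses by the rule given below, and their part in the results was not tested. Markers of other cell types were summed in the same way and their part in the results was not tested. All 4 epithelial markers and 3 of 4 endothelial markers had group means under 10. Of 5 neuron markers, 2 were under 10 and the sum ranged from 1054 at the high dose to 1363 at vehicle, with SNAP25 going from 704 to 167 and SYT1 from 638 to 868. Of 5 microglia and leukocyte markers, AIF1, CX3CR1 and P2RY12 were at or near 0, and the sum went from 3140 to 4039, most of it CD68, with PTPRC at 275 and 84.8. Of 4 oligodendrocyte markers, MOG and MAG were at or near 0, and the sum went from 150 to 261, most of it MBP.

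Promoter sequence is shown for 4 of the genes. ID2 and KCP were chosen because they changed most in opposite directions. BAMBI and ID3 were chosen as examples of genes with matches to SMAD-type motifs in this stretch, where ID4, SMAD7, SMAD9 and BMP4 also held matches. Each run is the 250 bases before the RefSeq start site in GRCh38.p14, written 5′ to 3′ on the gene's own strand. Capitals mark matches, on either strand, to any of 3 motifs: GGCGCC and GCCGNCGC, GC-rich elements of the kind bound by BMP-activated SMADs, and CAGAC, the core SMAD-binding element. The ID2 window is chr2:8681806-8682055 on the plus strand, the ID3 window chr1:23559502-23559751 on the minus strand, the BAMBI window chr10:28677271-28677520 on the plus strand and the KCP window chr7:128910710-128910959 on the minus strand.
ID2: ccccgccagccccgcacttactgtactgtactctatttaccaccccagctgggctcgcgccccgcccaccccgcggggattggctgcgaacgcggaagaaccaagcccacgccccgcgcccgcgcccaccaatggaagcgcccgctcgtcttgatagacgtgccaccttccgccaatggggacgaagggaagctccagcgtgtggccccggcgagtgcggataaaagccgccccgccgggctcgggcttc
ID3: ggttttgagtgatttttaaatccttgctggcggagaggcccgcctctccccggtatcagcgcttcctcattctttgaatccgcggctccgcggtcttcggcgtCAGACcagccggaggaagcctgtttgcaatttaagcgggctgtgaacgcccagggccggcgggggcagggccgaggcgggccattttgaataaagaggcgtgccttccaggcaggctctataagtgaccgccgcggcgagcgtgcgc
BAMBI: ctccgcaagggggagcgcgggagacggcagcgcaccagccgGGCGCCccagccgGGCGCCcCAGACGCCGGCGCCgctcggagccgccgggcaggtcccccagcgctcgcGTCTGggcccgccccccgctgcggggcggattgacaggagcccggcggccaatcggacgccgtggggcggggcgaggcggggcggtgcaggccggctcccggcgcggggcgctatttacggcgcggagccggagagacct
KCP: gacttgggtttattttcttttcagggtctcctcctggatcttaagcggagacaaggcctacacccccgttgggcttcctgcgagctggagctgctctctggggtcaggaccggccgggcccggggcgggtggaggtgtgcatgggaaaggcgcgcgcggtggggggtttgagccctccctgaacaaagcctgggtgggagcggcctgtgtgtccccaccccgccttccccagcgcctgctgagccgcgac
BAMBI held 3 matches to GGCGCC, at 209, 196 and 181 bases before the start, of which the last overlapped a match to GCCGNCGC. It also held 2 CAGAC matches, at 189 and 140 bases before the start. ID3 held a single CAGAC match 147 bases before the start, and neither the ID2 nor the KCP run held any of the 3. The search covered 250 bases before to 50 bases after the start, where all 10 genes had an entry. In these windows ID1, ID2 and SMAD6 had no match to any motif, and KCP had 1 CAGAC match just after its start. Sequence beyond the windows was not searched, so a gene without a match here may hold matches further away. ID4 held 1 CAGAC match, and SMAD9 8 matches to GCCGNCGC and 1 to CAGAC. Except for the match 91 bases before the start, the SMAD9 matches to GCCGNCGC overlapped each other in a single run. That run lay after the start, at -22 to -40 on the scale of bases before it. G and C made up 79.7% of the SMAD9 window and 80% of the BAMBI window, beside a median of 58.7% over all promoters. At the first of 3 listed start sites, SMAD7 held 2 CAGAC matches, and BMP4 2 matches to GGCGCC and 1 to CAGAC. Among 35116 RefSeq promoters, GGCGCC was found in 19.2%, GCCGNCGC in 16.8% and CAGAC in 45.3% on either strand. Those shares are over all promoters, not over promoters of like GC content. A match is only a match of letters.

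Levels are given as normalised counts, the deposited counts divided by a DESeq2 size factor, as mean ± SD over n = 3 libraries. A gene was called a differentially expressed gene (DEG) at a Benjamini-Hochberg adjusted p under 0.05 with an absolute fold change over 1.5. Fold changes are log2 values from the DESeq2 fit of all 12 libraries, with their standard error (SE). At the high dose, 9 of the 10 genes met the rule, of 18.2% of all genes tested. The 8 that were lower stood beside 9.57% of all genes tested called lower, and KCP, which was higher, beside 8.66% called higher. All 10 had high-dose libraries entirely outside the vehicle range, which held for 60.4% of genes tested. Since the 10 genes were chosen with this comparison in view, nothing is read from these counts.

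**Figure D1:**
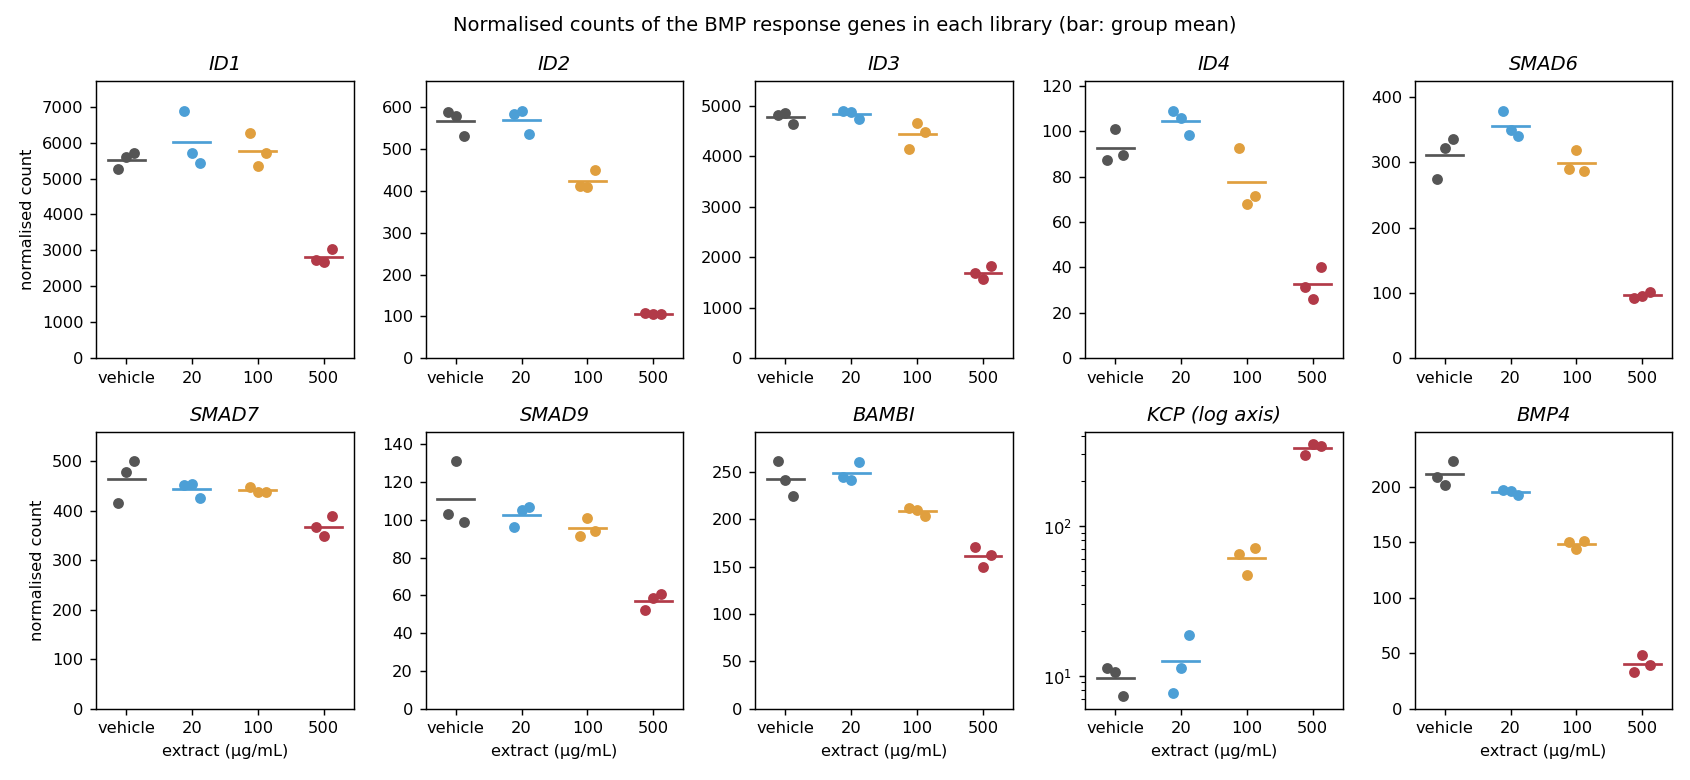
Normalised count of each of the 10 genes in each of the 12 libraries, by extract dose in µg/mL; points are libraries, bars are group means, axes are linear from 0 except for KCP, whose axis is logarithmic. The 3 high-dose libraries lie below all vehicle libraries for 9 genes and above them for KCP.

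ID1 and ID3 were by far the most abundant of the ID genes, and both were lower at the high dose. ID1 (ENSG00000125968, chr20:31605283-31606515, plus strand) was at 5259, 5606 and 5698 normalised counts in the vehicle libraries, 6888, 5705 and 5445 at the low, 6274, 5345 and 5705 at the medium and 2725, 2671 and 3047 at the high dose. The low- and medium-dose libraries overlapped vehicle, while every high-dose library lay below it. The log2 fold change of ID1 was -0.97 (SE 0.101) at the high, 0.06 at the medium and 0.12 at the low dose. In bulk RNA, a lower count per cell and fewer cells carrying the transcript cannot be told apart. ID3 (ENSG00000117318, chr1:23557926-23559501, minus strand) was at 4815, 4849 and 4641 in vehicle, 4902, 4877 and 4736 at the low, 4147, 4664 and 4483 at the medium and 1679, 1565 and 1828 at the high dose. Its medium-dose libraries touched the vehicle range from below, and the high-dose libraries were far outside it. For ID3 the log2 fold change was -1.5 (SE 0.0492) at the high, -0.10 at the medium and 0.02 at the low dose.

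ID2, which restrains differentiation driven by bHLH factors, had the lowest log2 fold change of the 4 ID genes and was already lower at the medium dose. ID2 (ENSG00000115738, chr2:8678845-8684461, plus strand) was at 589, 580 and 532 in vehicle, 584, 592 and 537 at the low, 413, 410 and 449 at the medium and 107, 106 and 105 at the high dose. The groups stepped down without overlap from the low to the medium to the high dose, and the 3 high-dose libraries were nearly equal. The log2 fold change of ID2 was -2.42 (SE 0.113) at the high, -0.42 (SE 0.0886) at the medium and 0.01 (SE 0.0862) at the low dose. Antisense ID2-AS1, which covers 6.55% of its exon bases on the other strand, had about 2 normalised counts in each group. ID4 (ENSG00000172201, chr6:19837370-19842197, plus strand), the scarcest of the family, was at 87.1, 101 and 89.5 in vehicle, 109, 106 and 98.4 at the low, 92.7, 68.0 and 71.6 at the medium and 31.3, 26.1 and 40.2 at the high dose. Vehicle overlapped both the low and the medium dose, and the high dose was below all of them. ID4 had log2 fold changes of -1.51 (SE 0.234), -0.27 (SE 0.207) and 0.17 (SE 0.201) at the high, medium and low dose.

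The ID genes together also changed in make-up. Their summed normalised count was 10949 ± 193 at vehicle, 11526 ± 860 at the low, 10708 ± 220 at the medium and 4643 ± 337 at the high dose. ID2 made up 5.18 ± 0.315% of the sum at vehicle, 4.96 ± 0.284% at the low, 3.96 ± 0.215% at the medium and 2.29 ± 0.180% at the high dose. ID1 went from 50.4 ± 1.54% to 60.6 ± 0.576% and ID3 from 43.6 ± 1.22% to 36.4 ± 0.570% between vehicle and the high dose. These shares are of counts, not scaled to gene length.

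**Figure D2:**
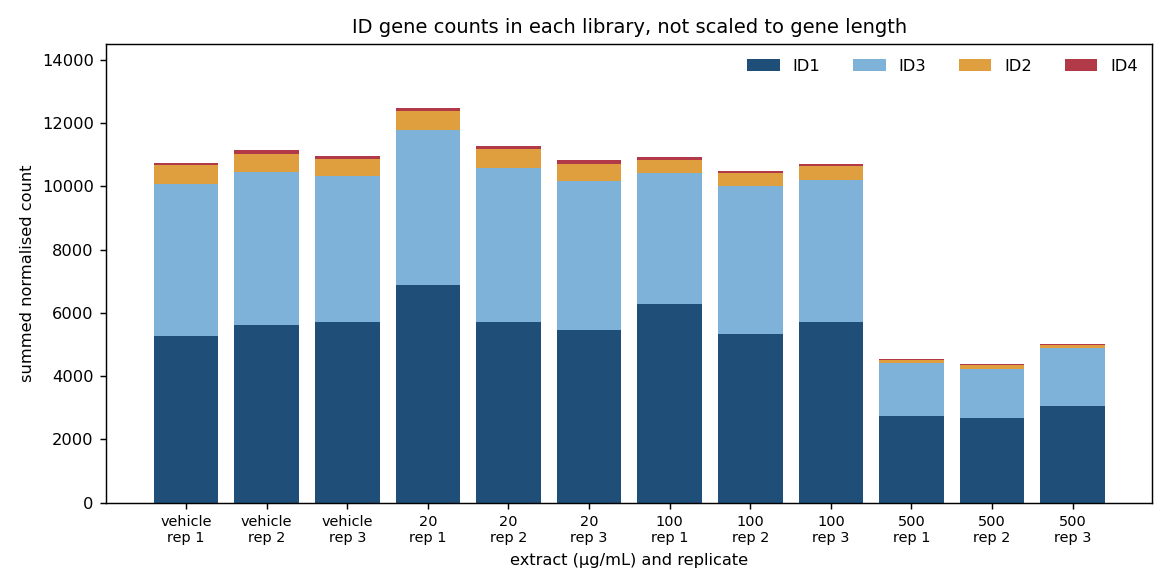
Summed normalised count of ID1, ID3, ID2 and ID4 in each library, stacked by gene, not scaled to gene length; the horizontal axis gives the extract dose in µg/mL and the replicate. The high-dose bars reach 4369 to 5020, against 10750 to 11136 in vehicle.

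Of the inhibitory SMADs, SMAD6 was lower at the high dose and SMAD7 was not past the fold limit. SMAD6, which blocks BMP type I receptor signalling (ENSG00000137834, chr15:66702236-66782849, plus strand), was at 275, 322 and 336 in vehicle, 379, 349 and 340 at the low, 290, 319 and 286 at the medium and 92.6, 95.5 and 101 at the high dose. All low-dose libraries sat just above vehicle, the medium dose overlapped it and the high dose lay well below. SMAD6 had a log2 fold change of -1.69 (SE 0.133) at the high, -0.06 (SE 0.113) at the medium and 0.19 (SE 0.111) at the low dose. SMAD7, which also inhibits the TGF-beta arm (ENSG00000101665, chr18:48919853-48950965, minus strand), was at 415, 479 and 500 in vehicle, 453, 454 and 426 at the low, 449, 439 and 438 at the medium and 367, 349 and 389 at the high dose. Only the high dose was outside the vehicle range, by a small margin, with a log2 fold change of -0.34 (SE 0.0923).

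SMAD9, a receptor-activated SMAD that is itself BMP-induced (ENSG00000120693, chr13:36844831-36920887, minus strand), was at 103, 131 and 98.9 in vehicle, 96.2, 105 and 107 at the low, 91.6, 101 and 94.2 at the medium and 52.1, 58.6 and 60.8 at the high dose. Its high-dose log2 fold change was -0.96 (SE 0.196), and the 2 lower doses overlapped vehicle. BAMBI, a receptor-like protein without a kinase (ENSG00000095739, chr10:28677510-28682932, plus strand), was at 261, 241 and 224 in vehicle, 244, 241 and 260 at the low, 212, 210 and 203 at the medium and 171, 150 and 162 at the high dose. BAMBI was below vehicle in all medium- and high-dose libraries, but its high-dose log2 fold change of -0.59 (SE 0.124) was close to the fold limit. Without vehicle replicate 1, or without high replicate 2, its log2 fold change was -0.54 and the call was lost. The plot of fold changes shows how near BAMBI and SMAD7 stood to that limit.

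**Figure D3:**
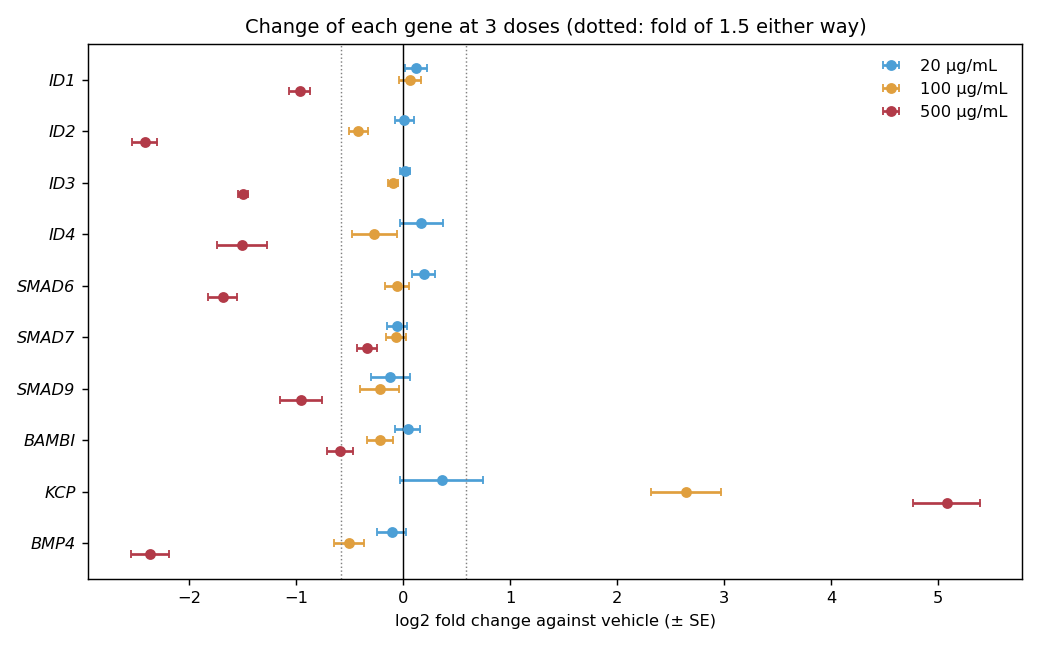
Log2 fold change against vehicle with its SE (bars) for the 10 genes at 20, 100 and 500 µg/mL; dotted lines mark a fold of 1.5 either way. KCP lies at 5.08 and 2.64 for the high and medium dose, and ID2 and BMP4 at -2.42 and -2.37 for the high dose.

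The extracellular genes moved in opposite directions. BMP4, the ligand (ENSG00000125378, chr14:53949736-53958761, minus strand), was at 209, 202 and 223 in vehicle, 197, 196 and 193 at the low, 150, 144 and 151 at the medium and 33.6, 48.7 and 39.3 at the high dose. Each dose lay below vehicle without overlap, narrowly at the low dose. The log2 fold change of BMP4 was -2.37 (SE 0.178) at the high, -0.51 (SE 0.140) at the medium and -0.11 (SE 0.136) at the low dose. An annotated antisense gene not used here covers 16.3% of its exon bases. KCP (ENSG00000135253, chr7:128862042-128910719, minus strand) was at 11.3, 10.5 and 7.29 in vehicle, 7.69, 11.2 and 18.8 at the low, 64.9, 46.6 and 70.7 at the medium and 299, 350 and 340 at the high dose. KCP was near the detection range at vehicle, 7 to 12 reads a library, overlapped it at the low dose and was above it in every medium- and high-dose library. For KCP the log2 fold change was 5.08 (SE 0.313) at the high, 2.64 (SE 0.328) at the medium and 0.36 (SE 0.390) at the low dose, the last resting on low replicate 3, without which it was -0.05. Of its exon bases, 16.4% lie opposite ATP6V1FNB and ATP6V1F. Whether counting used strand is not given in the sources used here. ATP6V1F, with 1827 normalised counts at vehicle and 2225 at the high dose, changed by 0.28 on the log2 scale, and ATP6V1FNB went from 35.0 to 104, a log2 fold change of 1.57. Their part in the KCP counts was not tested.

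At the medium dose against vehicle, KCP alone among the 10 genes met the DEG rule, where 3.81% of all genes tested did, 2.34% higher and 1.48% lower. ID2, BAMBI and BMP4 lay below vehicle without overlap and KCP above it, so 4 of 10 did not overlap, beside 50.3% of genes tested. At the low dose none was called, beside 0.118% of genes tested. Only ID1, ID2, ID3, SMAD6 and SMAD7 received an adjusted p there, and edgeR also called 0. In DESeq2, 0 of the 10 passed an unadjusted p of 0.05, and the share over all genes was not counted. SMAD6 and BMP4 were the 2 genes whose low-dose libraries did not overlap vehicle, beside 25.7% of genes tested. From the medium to the high dose 8 of the 10 met the rule, beside 10.2% of all genes, and only SMAD7 (log2 fold change -0.26) and BAMBI (-0.37) did not. Those log2 differences were -2.0 for ID2, -1.85 for BMP4, -1.63 for SMAD6 and 2.45 for KCP. The comparisons against vehicle share the vehicle libraries. That of the high with the medium dose reuses the high-dose libraries by which the 10 genes were chosen, so nothing is read from its count.

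A test was made between the medium and low dose, whose 6 libraries are none of those of the high-dose comparison. The fit took its spread and scaling from all 12 libraries, so the separation is not complete. KCP was higher at the medium dose by 2.28 on the log2 scale (SE 0.306, adjusted p = 4.63e-12, DESeq2), and was the only one of the 10 to be a DEG, beside 1.94% of all genes tested. ID2 was lower by a log2 difference of -0.43 (SE 0.0888, adjusted p = 2.68e-05), BMP4 by -0.40 (SE 0.142, adjusted p = 0.0291) and ID3 by -0.13 (SE 0.0466, adjusted p = 0.0398), each under the fold limit. Replicates of the same number deviated together in these 2 groups (correlations of 0.12 to 0.19 over genes), and with the replicate number as a block the adjusted p was 0.0914 for BMP4 and 0.0647 for ID3, so neither passed, while KCP (1.61e-10) and ID2 (0.000568) did. BMP4 also did not pass with any 1 of the 6 libraries left out (adjusted p 0.0850 to 0.138), nor ID3 without medium replicate 1 or 3 or low replicate 1 or 2 (0.0727 to 0.282). Both passed in edgeR (0.00252 for BMP4 and 0.0425 for ID3) and in DESeq2 after an expression filter (0.0180 and 0.0278), under the fold limit. In a DESeq2 fit of these groups alone, KCP (adjusted p = 2.16e-07), ID2 (0.000107) and ID3 (0.0292) passed and BMP4 (0.0503) did not. The remaining 6 did not pass in DESeq2. The log2 differences were -0.06 for ID1 (adjusted p = 0.777), -0.44 for ID4 (0.129), -0.25 for SMAD6 (0.101), -0.01 for SMAD7 (0.972), -0.10 for SMAD9 (0.794) and -0.25 for BAMBI (0.136). In edgeR, ID4 (adjusted p = 0.0259), SMAD6 (0.0183) and BAMBI (0.0207) passed the adjusted p, again under the fold limit.

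Per kilobase of exon, normalised counts at vehicle ran from 4478 ± 188 for ID1 and 3187 ± 74.8 for ID3 through 256 ± 13.9 for ID2, 118 ± 11.2 for SMAD7, 113 ± 8.79 for BAMBI, 68.3 ± 3.35 for BMP4, 36.4 ± 3.77 for SMAD6, 23.9 ± 1.88 for ID4 and 18.6 ± 2.87 for SMAD9 to 0.774 ± 0.169 for KCP. SMAD7 and BAMBI did not differ beyond their spread. With the longest transcript as the length, ID3 was at 5019 per kilobase and passed ID1. At the high dose KCP reached 26.3 ± 2.18 per kilobase of exon, above BMP4 at 13.1 ± 2.46, SMAD6 at 11.3 ± 0.499, SMAD9 at 9.60 ± 0.759 and ID4 at 8.40 ± 1.84.

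Other genes of the pathway, 107 in 8 lists, were counted alongside the 10. At the high dose 79 of them were tested, of which 7 were DEGs higher and 19 lower, beside 8.66% and 9.57% of all genes tested. The same shares stand beside the high-dose counts of each list below, and no list was tested as a set. The lists were drawn up with earlier results of these data known and genes were named from them by fold change, so their adjusted p-values are no independent support. The median log2 fold change of the 66 whose normalised counts averaged 10 or more was -0.15, beside 0.00 for all such genes. By list the median was -0.83 for further genes known to respond to BMP, -0.51 for ligands and -0.29 for extracellular antagonists and modulators. It was -0.28 for the TGF-beta and activin arm and -0.10 for the signal-carrying SMADs. It was 0.18 for intracellular regulators, 0.21 for bHLH partners and 0.45 for receptors and co-receptors. Among 14 BMP and GDF ligands, of which 8 were tested, 1 rose and 2 fell, with GDF6, a growth and differentiation factor, falling from 479 ± 13.8 to 195 ± 17.5 (log2 fold change -1.29, adjusted p = 1.05e-35). BMP6, at 11.9 and 51.4, and GDF5, at 29.5 and 5.38, were the other two and are named after their values were seen.

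Among 13 receptors and co-receptors, of which 9 were tested, 1 rose and 3 fell. BMPR2, the BMP type II receptor, fell from 1886 ± 28.7 to 1080 ± 35.9 (log2 fold change -0.81, adjusted p = 4.75e-58), ENG, the co-receptor endoglin, from 6356 ± 224 to 2733 ± 122 (-1.22, adjusted p = 2.25e-233), and ACVR2A from 216 to 128 (-0.76, adjusted p = 1.64e-07). ACVR1, a type I receptor, rose from 525 ± 16.9 to 826 ± 27.6 (0.65, adjusted p = 9.14e-18). BMPR1A went from 1221 to 862 (log2 fold change -0.50) and was under the fold limit. None of SMAD1, SMAD5 and SMAD4, which carry the signal, was a DEG, with log2 fold changes of -0.31, -0.10 and 0.30.

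Among 21 extracellular antagonists and modulators, of which 13 were tested, 2 rose and 3 fell. GREM1, which binds and blocks BMPs, rose from 313 ± 8.83 to 648 ± 22.1 at the medium and 1417 ± 23.2 at the high dose (log2 fold change 1.05, adjusted p = 9.74e-39, and 2.18, adjusted p = 7.16e-186). BMPER, a BMP-binding protein, fell from 724 to 415 (-0.80, adjusted p = 3.23e-24), and TLL1, a protease of the tolloid family, from 385 to 131 (-1.56, adjusted p = 5.43e-38). FST, which binds activin, was at 24.3 and 96.0, and DAND5 at 8.05 and 1.30, both named after their values were seen. NOG, which encodes noggin, was at 21.0 and 17.5 (-0.25, adjusted p = 0.671).

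Among 13 intracellular regulators, all tested, TGIF1, a repressor of SMAD-driven transcription, rose from 524 ± 16.9 to 1115 ± 28.7 at the medium and 3116 ± 41.7 at the high dose (log2 fold change 1.09, adjusted p = 4.97e-71, and 2.57, with an adjusted p too small to be represented). Its relative TGIF2 fell from 305 to 144 (-1.09, adjusted p = 6.24e-17). Of 14 further genes known to respond to BMP, of which 12 were tested, 1 rose and 5 fell, and the median log2 fold change of 8 was -0.83. ATOH8, a bHLH factor, fell from 618 ± 49.4 to 134 ± 6.49 (-2.21, adjusted p = 6.78e-95), DLX2 from 401 to 162 (-1.31, adjusted p = 1.52e-23), DLX3 from 162 ± 16.9 to 30.9 ± 3.50 (-2.40, adjusted p = 3.28e-27) and GATA2 from 230 to 96.9 (-1.25, adjusted p = 1.23e-16). HEY1, also a Notch target, rose from 163 to 296 (0.86, adjusted p = 2.5e-10), and MSX2, at 11.4 and 1.38, was the fifth lower gene, named after its values were seen.

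In the TGF-beta and activin arm, 4 of the 14 tested fell and 0 rose, beside 9.57% and 8.66% of all genes tested. TGFB3, a ligand, went from 418 ± 28.1 to 225 ± 3.30 at the medium and 53.8 ± 6.24 at the high dose (log2 fold change -0.89, adjusted p = 1.76e-14, and -2.97, adjusted p = 7.68e-88). TGFB2 fell from 542 to 340 (-0.67), GDF11 from 1069 to 537 (-1.0) and SMAD3 from 2857 to 1772 (-0.69). Of 13 bHLH partners of ID proteins, of which 7 were tested, TCF4 fell from 1222 to 486 (-1.33, adjusted p = 3.56e-86), while TCF3 and TCF12, at 0.21 each on the log2 scale, were under the fold limit. OLIG2, at 1.56 and 24.5, rose and is named after its values were seen. At the medium dose GREM1 and TGIF1 were DEGs higher and DLX3, GATA2 and TGFB3 lower, 5 of 65 tested, beside 3.81% of all genes, and edgeR called 9. At the low dose DESeq2 called 0 of 50 tested and edgeR also 0, beside 0.118% of all genes tested in DESeq2. An unadjusted p under 0.05 in DESeq2 was reached by 14 of the 97 with counts. The share over all genes was not counted, so nothing is read from that number.

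**Figure D4:**
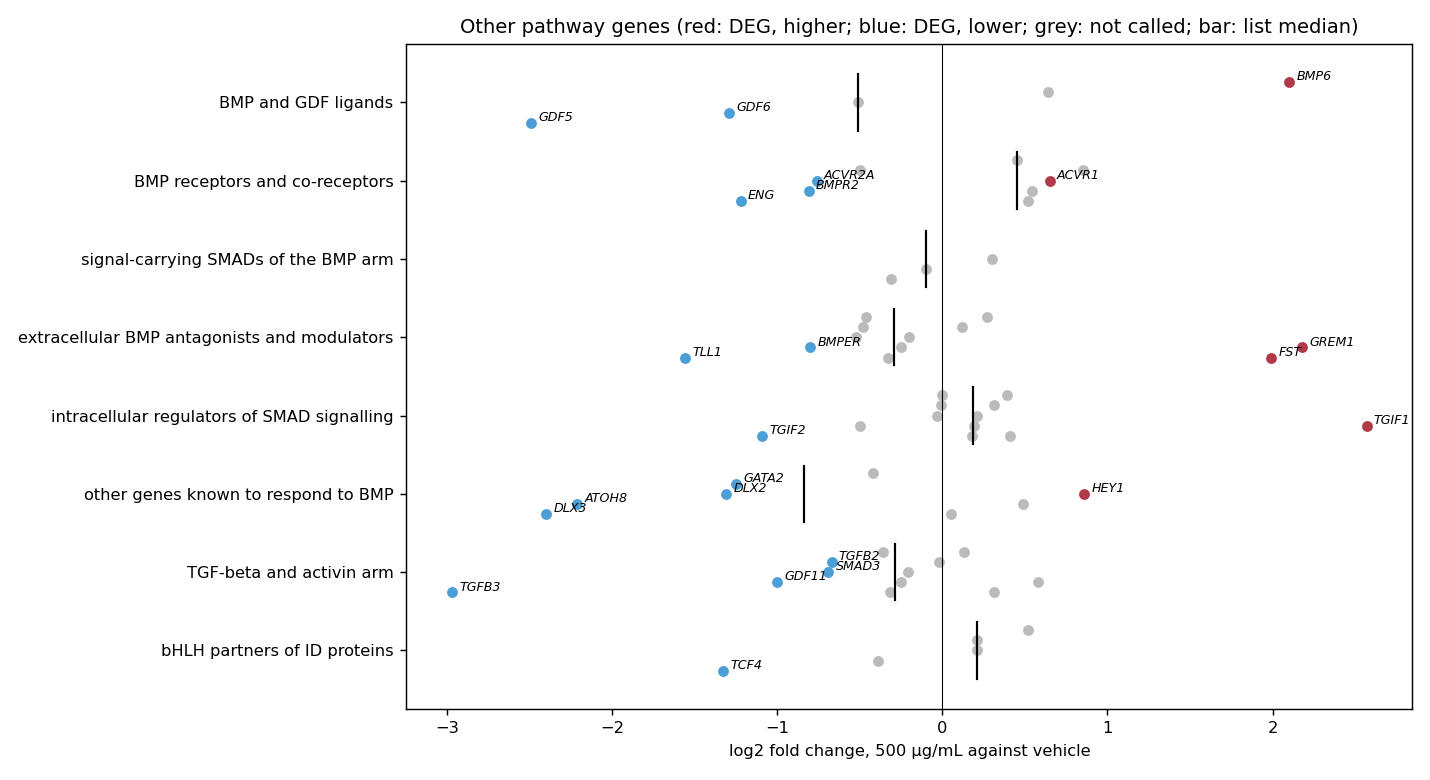
Log2 fold change at 500 µg/mL against vehicle for the other pathway genes averaging 10 or more normalised counts, in 8 lists; each point is a gene, red is a DEG that was higher, blue a DEG that was lower, grey not called, and the black bar is the list median. TGIF1 at 2.57 and GREM1 at 2.18 are far to the right, and TGFB3 at -2.97 far to the left.

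The genes whose profile over the 12 libraries was most like that of ID2 were RNF112, SALL2 and ATOH8. Likeness was the root mean square difference of log2(normalised count + 1) minus its vehicle mean, over 11256 genes, and was 0.129, 0.146 and 0.151. RNF112 went from 231 at vehicle to 42.8 at the high dose. Among the genes searched, those most like KCP were HKDC1 at 0.349, TRIB3 at 0.500 and ATF3 at 0.528. HKDC1, a hexokinase-like gene, went from 42.6 to 1142, and TRIB3, a stress-induced pseudokinase, from 393 to 7743. The KCP distances were larger than those of ID2, and libraries share the treatment, so this likeness is a description.

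**Figure D5:**
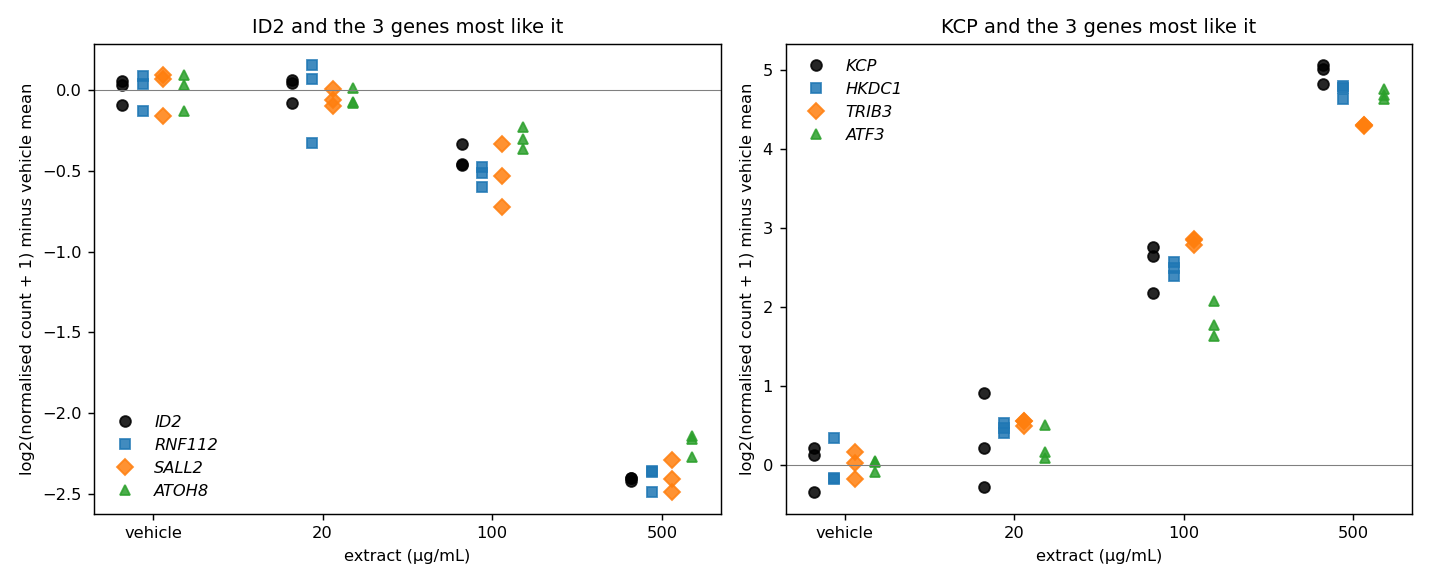
Log2(normalised count + 1) minus the vehicle mean for ID2 and its 3 most similar genes (left) and KCP and its 3 most similar genes (right), by dose in µg/mL; each point is a library. The high-dose log2 fold changes of the DESeq2 fit, a measure other than the one plotted, were -2.42 for ID2, -2.44 for RNF112, 5.08 for KCP and 4.73 for HKDC1.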

How the data were processed

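RNA was extracted with a QIAzol-based protocol, prepared with a directional mRNA kit and sequenced as 100 bp paired-end reads on an MGI instrument. Per the submitters' processing notes, FastQC 0.11.9, Trim Galore 0.6.5, STAR 2.7.3a and RSEM 1.3.3 were used with GRCh38. The deposited table holds the authors' RSEM expected counts, not normalised, for 60675 identifiers; 8.75% of values were not whole and were rounded here, and 29867 identifiers were at 0 throughout. Identifiers were named by GENCODE 44 (93.2% matched, 99.9% of counts).

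The fit was DESeq2 1.42.0 in R 4.3.3 on all 12 libraries with group as the only term. The study names the DESeq2 Wald test between treatment and vehicle groups, and the joint fit was chosen here. Replicate numbers in the labels were checked for pairing by the correlation over genes of deviations from the group means. Between the medium and low dose every same-numbered pair was over 0.1 (0.12, 0.16 and 0.19), and in no other pair of groups was this so. A two-sided Wald test was adjusted by Benjamini-Hochberg over all genes tested, with a threshold of 0.05 and a fold of 1.5. edgeR 4.0.16 gave the quasi-likelihood alternative. The pipeline was tested on simulated data. The members and lists were chosen with earlier results of these data known. Named list genes were those called at any dose whose normalised counts averaged 50 or more, at most 5 a list by fold change. SMAD1, SMAD4, SMAD5, BMPR1A, BMPR2, NOG, TCF3, TCF4 and TCF12 were named whatever they did. For ID2 and KCP, the 3 most similar genes of mean at least 100 outside the 10 were named. An item of the pathway lists is not reported here. The list medians used genes of mean at least 10. Depth limits the precision of low genes such as KCP at vehicle. Alternatives were another tool, another scaling, filters, left-out genes and libraries, and a replicate block.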

Additional observations from a re-analysis of the deposited data

Results flagged for a closer look

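Among 69 genes of mean normalised count of at least 50, 5 had doses whose libraries all lay on opposite sides of vehicle. The share over all genes was not counted, so nothing is read from this number. Lying outside the vehicle range in all libraries, on either side, held for 25.7%, 50.3% and 60.4% of genes tested at the low, medium and high dose. The differences between the doses on opposite sides are given without a test, because the genes were picked for lying there. Whether the responses differ was not tested independently. SMAD6 was above vehicle in all low-dose and below it in all high-dose libraries, with a log2 difference of -1.88 (high minus low, SE 0.132). FSTL3, a follistatin-like protein, differed by -0.46 between high and low (SE 0.0499) and by -0.63 between high and medium (SE 0.0494). TGFBR1, the TGF-beta type I receptor, differed by 0.22 between high and low (SE 0.0455). LTBP3, a latent TGF-beta binding protein, differed by -0.33 between high and low (SE 0.0461) and by -0.31 between high and medium (SE 0.0461). TWIST1, a bHLH factor, differed by -0.60 between high and low (SE 0.0855).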

How the results depend on the processing

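The number of the 10 genes called against vehicle and between doses kept within 1.5 times of the main number under edgeR, TMM scaling, both filters, left-out mitochondrial genes, a fit of the compared groups alone, and each left-out library; at the high dose it ranged from 8 to 9 over the left-out libraries. Without the fold limit the calls rose to 3 at the medium dose and 4 between the medium and low dose, and those of the pathway lists to 59 at the high and 31 at the medium dose. edgeR called 9 list genes at the medium dose. The replicate block changed no DEG call of the 10 genes, but BMP4 and ID3 no longer passed the adjusted p between the medium and low dose, the one pair of groups where all same-numbered libraries correlated over 0.1. It gave 3297 DEGs at the high and 488 at the medium dose. Over all pairs of groups, 5 of 18 same-numbered pairs were over 0.1 (range -0.12 to 0.22), and 6 of 12 libraries correlated best with their own number. Between the medium and low dose, ID3 had an adjusted p of 0.0593 with TMM scaling and BMP4 0.0503 with the compared groups alone. Some log2 fold changes near 0 reversed when 1 library was left out. Over the left-out libraries, the low-dose log2 fold change ranged from -0.19 to 0.02 for SMAD9 (0.02 without vehicle replicate 2), -0.03 to 0.05 for ID2 (-0.03 without vehicle replicate 3, -0.01 without low replicate 1 and -0.02 without low replicate 2), -0.02 to 0.09 for BAMBI (-0.02 without vehicle replicate 3) and -0.05 to 0.62 for KCP (-0.05 without low replicate 3). Between the medium and low dose the range was -0.13 to 0.05 for ID1 (0.05 without low replicate 1) and -0.04 to 0.01 for SMAD7 (0.00 without low replicate 1 and 0.01 without low replicate 2). The cause was not tested. With the longest transcript as the length, ID2 was at 278 and ID3 at 5019 per kilobase at vehicle. On the given strand alone, GCCGNCGC was in 9.15% and CAGAC in 25.6% of promoters. Depth leaves genes with few counts, such as KCP at vehicle, with wide errors.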
